A study of Scyliorhinus canicula with 6 samples.

Results

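The abundant but not dominant transcripts of the shark ventricle are described here, as 193 contig groups that sat just below the 20 most abundant ones. The animals were juveniles of the catshark Scyliorhinus canicula, which lays its eggs in horny cases, and RNA-seq was done on their ventricles. For 3 libraries the embryos had developed at 20 °C and for 3 at 15 °C. All hatchlings then lived at a shared 15 °C for about 5 months. The question was whether the warmer egg left a lasting difference in heart RNA. The labels give neither strain, sex nor exact age, and they do not say whether replicates came from separate animals or clutches, so a p-value measures only the spread between these libraries, which may be technical.

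A contig is a stretch of RNA sequence put together from overlapping reads without a genome, and a contig group is what the assembler treats as 1 gene. Abundance is given as TPM, which divides each read count by effective length and rescales to the same total in every library, so that groups of different length can be compared. The 269971 contig groups were ranked by mean TPM over all 6 libraries. Members were chosen by these TPM values: they were the ranks 21 to 220 that had at least 1 TPM in every library, after leaving out the 150 groups with the longest contigs and then the 150 groups with the most contigs. Of the 200 ranks, 193 met the rule. Of the other 7, 5 fell below 1 TPM in some library, 1 was among the longest and 1 was among those with the most contigs. The mean level and the lowest level over all 6 libraries thus chose the members, and statements on their level are descriptions.

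The ventricle is the main pumping chamber of the fish heart and consists largely of muscle cells, with vessels, connective tissue and blood in and around the muscle. In heart muscle a small number of genes is known to supply much of the messenger RNA, while many moderately abundant transcripts maintain protein synthesis, energy supply and contraction. Which of these roles the members have cannot be told from the deposited tables, because they hold no gene names and none of the contig names occurs in the RefSeq gene table (0 of its 29227 genes matched). Members are therefore called by their contig names, and the ventricle label could not be checked against marker genes. In bulk tissue such as this, fewer cells of a type and less RNA per cell cannot be told apart.

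At the limits of the rule, the last group above the members, TRINITY_DN131349_c0_g1, had a mean of 3440 TPM and the first member, TRINITY_DN135497_c8_g5, a mean of 3427 TPM. The last member, TRINITY_DN137564_c1_g5, had a mean of 415 TPM and the first group below, TRINITY_DN92989_c0_g1, a mean of 414 TPM. The longest member, TRINITY_DN140671_c2_g3, reached 6650 bases, where the limit lay between 9011 and 9019 bases. TRINITY_DN137073_c1_g1 had 17 contigs, the same number as the last group that was left out, and stayed in by the order of names alone. The lowest value of any member in any library was 4.93 TPM, in TRINITY_DN134720_c5_g2. Of the 5 groups left out for a low value, TRINITY_DN123335_c0_g1 at rank 41 had 2737, 4.70 and 3337 TPM in the 20 °C replicates and 3162, 1.38 and 0.497 TPM in the 15 °C replicates. It was thus high in 3 libraries of both temperatures and close to 0 in the others.

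The libraries differed in depth, from 2397973 to 12954558 estimated counts. The deepest and the shallowest were both from 15 °C (replicates 2 and 3). Members were well covered even so, with a median count per member of 786 to 5128 in a library and a smallest count of 22.6. No member held a count that was deposited in rounded exponent form. Library-to-library correlations of log2 TPM over the 193 members ranged from 0.0876 (15 °C replicates 1 and 2) to 0.757 (20 °C replicate 1 and 15 °C replicate 1). These are Pearson values, and by rank (Spearman) the same pairs were again lowest and highest, at 0.438 and 0.779. The mean Pearson value was 0.379 for the 6 pairs within a temperature and 0.459 for the 9 pairs between temperatures. These values describe libraries that share members chosen within a narrow range of levels, and members are not independent replicates.

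The members together held a similar part of the ventricle messenger RNA in every library. Their summed share of TPM was 16.6%, 16.6% and 15.9% in the 20 °C replicates 1, 2 and 3, and 17.2%, 18.5% and 16.3% in the 15 °C replicates. The 20 °C values were close together, and 15 °C replicate 2 was the highest of all, while 15 °C replicate 3 lay inside the 20 °C range. The mean share in 20 °C libraries was 16.4% ± 0.386, and in 15 °C libraries 17.3% ± 1.07 (SD, n = 3 each), a difference of -0.961 percentage points, and the temperatures overlapped. As shares of read counts, which are not scaled for length, the members held 12.1% ± 1.18 at 20 °C and 13.3% ± 1.45 at 15 °C. The difference in TPM share was -0.398 without 15 °C replicate 2 and -1.46 without 15 °C replicate 3. A share summed over chosen members received no test.

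**Figure D1:**
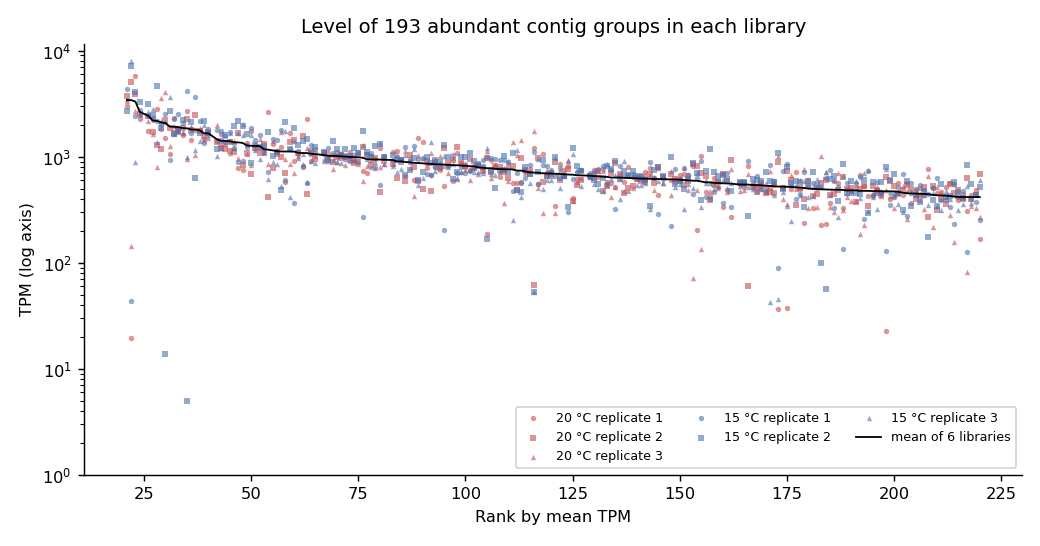
TPM (log axis) of each of the 193 members in each of the 6 libraries, against rank by mean TPM (x axis); red marks are 20 °C libraries, blue marks 15 °C libraries, marker shapes the replicates, and the line the mean of the 6. Most members keep near the mean line in all libraries, and 13 members drop below 100 TPM in at least 1 library.

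The median length of the longest contig was 685 bases (range from 203 to 6650), and 117 of the 193 members consisted of 1 contig. Under 500 bases were 56 members (29.0%), against 28.8% of all 23880 groups with at least 1 TPM in every library, and under 300 bases were 15 members (7.77%), against 12.7%. The share with 1 contig, 60.6%, was 54.2% in the 190 groups of ranks 221 to 420 chosen the same way and 60.2% in the 23880 groups. TPM divides by effective length, so a short contig needs few reads to rank high. Ranked by mean CPM, which scales counts for depth without a length term, 118 of the 193 members would still be at ranks 21 to 220. By that measure 3 would be among the first 20, and TRINITY_DN20283_c0_g1, of 232 bases, would be at rank 938. Within single libraries, 163 to 175 of the members were among the first 220 groups, and 116 were so in all 6 libraries.

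By length, the 15 members under 300 bases held 8.86% of the members' TPM and the 41 from 300 to under 500 bases held 22.5%. The 74 members from 500 to under 1000 bases held the most, 35.9%. Another 45 members from 1000 to under 2000 bases held 24.0%, and the 18 longer ones 8.70%. The median CV between libraries was lowest, 18.0%, in the class from 500 to under 1000 bases and highest, 26.6%, in the longest class. The shortest class held 1.37% of all TPM at 20 °C and 1.61% at 15 °C, and the class from 300 to under 500 bases 3.73% at 20 °C and 3.85% at 15 °C. The class from 500 to under 1000 bases held 6.07% at 20 °C and 6.05% at 15 °C. From 1000 to under 2000 bases the share was 3.85% at 20 °C and 4.24% at 15 °C, and in the longest class 1.35% at 20 °C and 1.58% at 15 °C.

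Single libraries differed in how often they were extreme. A member's highest value fell in 20 °C replicates 1, 2 and 3 in 26, 11 and 20 members, and in 15 °C replicates 1, 2 and 3 in 57, 66 and 13 members. The lowest value fell in 22, 27 and 54 members at 20 °C, and in 17, 16 and 57 members at 15 °C. High values were thus most frequent in 2 of the 15 °C libraries, while the other 15 °C library held low values most often. Median member levels were close all the same, at 697, 684 and 704 TPM in the 20 °C replicates and 715, 726 and 652 TPM in the 15 °C replicates.

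The most abundant member, TRINITY_DN135497_c8_g5, a single contig of 462 bases, had 3011, 3721 and 3320 TPM in the 20 °C replicates and 4343, 2688 and 3483 TPM in the 15 °C replicates. The 15 °C libraries held both the highest and the lowest value, and the temperatures overlapped. TRINITY_DN138276_c0_g1, with 5 contigs of up to 1413 bases, had 2250.3, 2518 and 2601 TPM at 20 °C and 2740.5, 3258 and 2482 TPM at 15 °C. Its log2 fold change of 20 °C over 15 °C was -0.18, with a 95% confidence interval from -0.73 to 0.37. TRINITY_DN7184_c0_g1, a contig of 222 bases, averaged 2109 ± 343 TPM at 20 °C and 2745 ± 387 TPM at 15 °C (SD, n = 3 each), and its 20 °C replicate 2 lay above 15 °C replicate 1.

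How steady a member was from library to library varied widely. The coefficient of variation (CV, the SD as a percent of the mean) of TPM over the 6 libraries had a median of 19.8%, with quartiles of 12.8% and 39.0%. In 26 of the 193 members it was under 10% and in 30 over 50%. These counts were 14 and 36 of the 190 groups of ranks 221 to 420, and 180 and 6606 of the 23880 groups. For comparison the median was 26.1% in ranks 221 to 420, 32.9% in the 20 most abundant groups and 39.5% in all 23880 groups with at least 1 TPM in every library. The highest library was less than 2-fold above the lowest in 118 members (61.1%), against 48.9% in ranks 221 to 420 and 18.8% in the 23880 groups. Ranking by the mean over the same libraries chose the members, and the minimum of 1 TPM in every library left out 5 groups. The 20 most abundant groups were taken without that minimum or the limits on length and contig number. The 23880 groups had a median mean level of 6.77 TPM, against 689 TPM in members. The part of low counts in their spread was not tested, and these differences are descriptions.

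The steadiest member was TRINITY_DN73501_c0_g1, a single contig of 410 bases. It had 668, 659.6 and 643 TPM in the 20 °C replicates and 704, 654 and 639.8 TPM in the 15 °C replicates, a CV of 3.52%. All 6 libraries lay close together whatever the temperature. TRINITY_DN5779_c0_g1, of 376 bases, followed with a CV of 5.92%, at 705 ± 50.2 TPM at 20 °C and 659 ± 2.52 TPM at 15 °C. TRINITY_DN1309_c0_g1, of 967 bases, had a CV of 6.28%, at 524 ± 37.7 TPM at 20 °C and 567 ± 13.5 TPM at 15 °C. TRINITY_DN124452_c0_g3, of 946 bases, was among the steadiest at a higher level, with 1619 ± 112 TPM at 20 °C and 1699 ± 111 TPM at 15 °C (SD, n = 3 each for these members). Its fitted log2 fold change was -0.06, with an interval from -0.56 to 0.44.

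**Figure D2:**
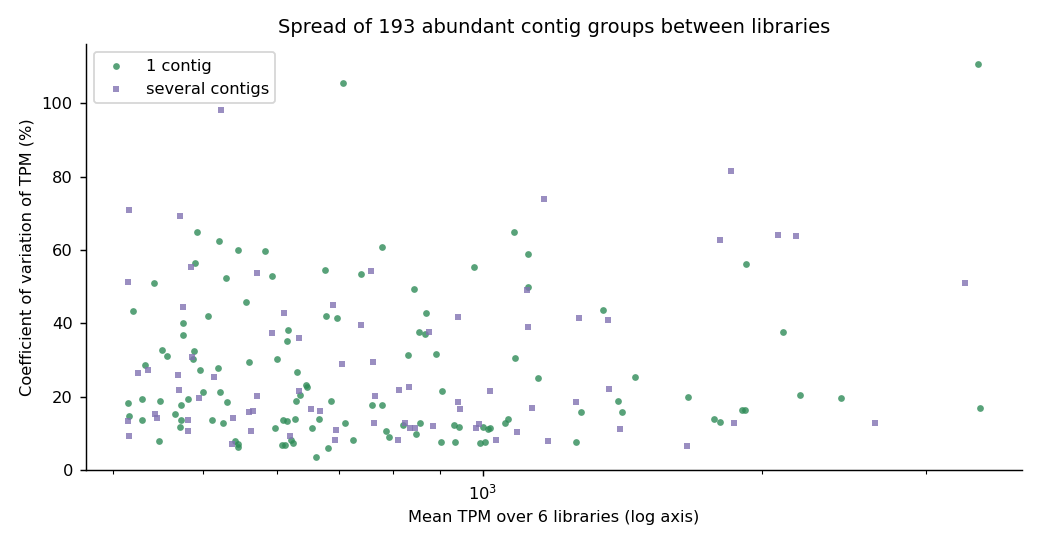
Coefficient of variation of TPM over the 6 libraries (y axis, percent) against mean TPM (x axis, log scale) for the 193 members; green circles consist of 1 contig and purple squares of several. The median is 19.8%, and 30 members lie above 50% at levels from the lowest to nearly the highest.

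At the other end, 30 members had a range of 4-fold or more between libraries and 13 a range of 10-fold or more, although each averaged at least 415 TPM. TRINITY_DN129078_c0_g2, a single contig of 1765 bases at rank 22, had 19.6, 5099 and 144 TPM in the 20 °C replicates and 43.7, 7193 and 7985 TPM in the 15 °C replicates. It was high in 3 libraries and low in the other 3, and both temperatures held libraries of each kind. TRINITY_DN20869_c0_g1, of 1238 bases, had 1208, 62.3 and 1753 TPM at 20 °C and 1113, 53.1 and 53.4 TPM at 15 °C. Its high libraries were the low ones of TRINITY_DN129078_c0_g2.

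TRINITY_DN113240_c0_g1, with 4 contigs of up to 550.0 bases, divided the libraries differently. It had 36.4, 886 and 1004 TPM in the 20 °C replicates and 89.9, 1073 and 45.6 TPM in the 15 °C replicates. Each temperature again held high and low libraries. Some members were low in a single library. TRINITY_DN130841_c1_g1, of 850.0 bases, had 1504, 2225 and 4103 TPM at 20 °C, and 2513, 13.9 and 2114 TPM at 15 °C, so it was low in 15 °C replicate 2 alone. TRINITY_DN46572_c0_g1, of 495 bases, was at 43.0 TPM in 15 °C replicate 3 and at 459.8 TPM or more in the other 5 libraries. These last 2 members were picked with their values in view.

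**Figure D3:**
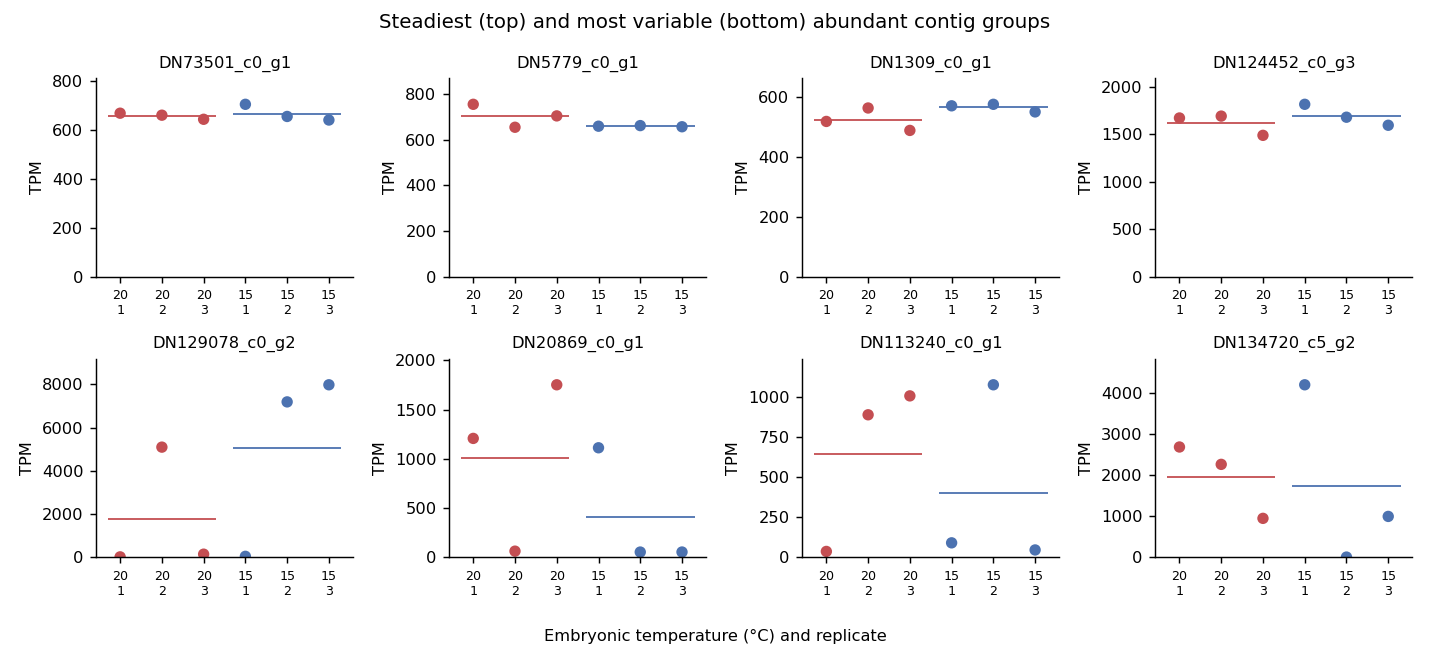
TPM (y axis, from 0) of the 4 members with the lowest CV (top row) and the 4 with the highest CV (bottom row) in each library (x axis, embryonic temperature and replicate number); red points are 20 °C, blue points 15 °C, and horizontal lines are group means. In the bottom row TRINITY_DN134720_c5_g2 is lowest in 15 °C replicate 2 alone, and the other 3 members have high and low libraries at both temperatures, as in TRINITY_DN129078_c0_g2 with 5099 TPM in 20 °C replicate 2 and 43.7 TPM in 15 °C replicate 1.

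Contig names also show how groups are related in the assembly. Groups with the same DN number are here called a cluster. The assembler's own cluster of overlapping reads is narrower and adds the c number. The 193 members came from 181 clusters by DN number, and 80 members were the only group of their cluster. Another 23 members shared 11 clusters among themselves, and 6 belonged to a cluster that also held one of the 20 most abundant groups. For the 113 members with other groups in their cluster, the median CV was 23.1% for the member alone and 18.7% for the summed cluster. The sum varied less in 79 of them. A sum of groups that vary independently can also have a lower CV, and unrelated groups were not summed for comparison. In 8 members from 6 clusters the CV of the sum was less than 50% of the member's own. By DN and c number together, 86 members had other groups beside them. Their median CV was 22.6% alone and 21.8% summed. At this narrower level the sum varied less in 52 members, and its CV was less than 50% of the member's own in 0. Of all 193 members, 169 held over 90% of the mean TPM at this level, counting those with no group beside them. A sum that is nearly all the member's own must have nearly the member's own CV. The 0 therefore cannot show whether offsets are absent at this level.

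In the clusters described next, 2 groups with the same DN number but different c numbers offset each other from library to library. TRINITY_DN134054_c2_g1 had 22.5, 644 and 483 TPM in the 20 °C replicates, and 129.9, 793 and 759 TPM in the 15 °C replicates. Its partner TRINITY_DN134054_c1_g1, also a member, had 1501, 588 and 1044 TPM at 20 °C, and 943, 604 and 538 TPM at 15 °C. Where one was lowest, in 20 °C replicate 1, the other was highest. The CVs were 69.2% and 42.8% for the single groups and 13.2% for the summed cluster.

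The pair TRINITY_DN128084_c0_g1 and TRINITY_DN128084_c1_g1, both members, did likewise. The first had 228, 570.2 and 1022 TPM in the 20 °C replicates and 522, 99.2 and 517 TPM in the 15 °C replicates. The second had 1059.8, 572 and 297 TPM at 20 °C and 826, 929 and 501 TPM at 15 °C. Their sum stayed between 1018 and 1348 TPM. TRINITY_DN127126_c0_g1 and TRINITY_DN132056_c6_g1 had partners at ranks 406 and 366, outside the members, and their clusters had a CV of 11.9% and 18.2%, against 42.1% and 59.9% for these members alone. These 4 clusters were picked for these values, and in each of their 8 groups the temperatures overlapped.

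**Figure D4:**
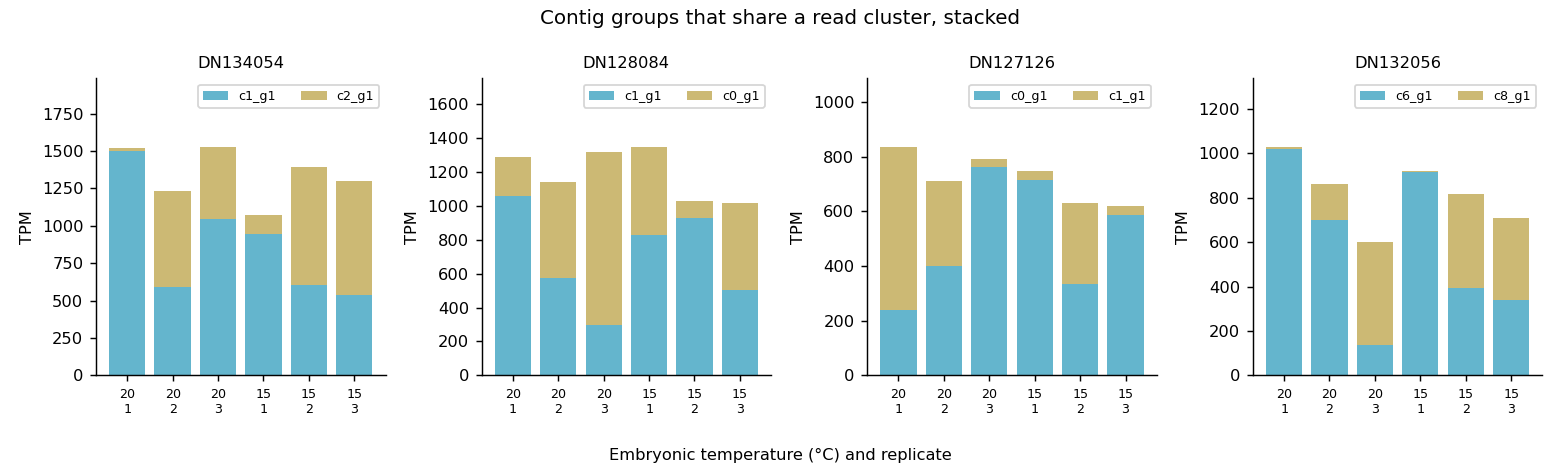
Stacked TPM (y axis, from 0) of the 2 main contig groups of 4 clusters in each library (x axis, embryonic temperature and replicate number). Groups of a cluster share a DN number, which the title calls a read cluster, and here differ in c number. The height of the stack varies less than its 2 parts: for the cluster TRINITY_DN134054 the sum has a CV of 13.2%, against 42.8% and 69.2% for the parts.

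Not all shared clusters showed such an offset. TRINITY_DN134595, where the members' summed level was highest, held 2 members that did not offset each other, and its sum had a CV of 51.5%. TRINITY_DN134595_c0_g1, of 1107 bases, had 5808, 3897 and 2719 TPM in the 20 °C replicates, and 2427, 4072 and 893 TPM in the 15 °C replicates. TRINITY_DN134595_c0_g2, of 345 bases, had 2251, 440.4 and 1198 TPM at 20 °C, and 561, 1463 and 578 TPM at 15 °C. Both were highest in 20 °C replicate 1, and the temperatures overlapped in both. In TRINITY_DN124452 the 2 members had a CV of 6.56% and 19.8%, and the sum of the cluster stayed between 2914 and 3830.2 TPM. Over all 11 clusters that members shared, the CV of the sum went as low as 6.92%, in TRINITY_DN135573.

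The cluster TRINITY_DN134720 joined 2 members to a group among the 20 most abundant ones. TRINITY_DN134720_c5_g2, of 486 bases, had 2688, 2265 and 949 TPM in the 20 °C replicates, and 4204, 4.93 and 996 TPM in the 15 °C replicates. Its lowest value was in the deepest library, where its count was 24.5. TRINITY_DN134720_c5_g1, of 868 bases, had 1783, 2497 and 1039 TPM at 20 °C, and 3687, 636 and 1158 TPM at 15 °C. The 2 contigs of TRINITY_DN134720_c5_g2 also replaced each other by library. The second contig held 100%, 0.886% and 0.392% of the group's counts in the 20 °C replicates and 99.8%, 100% and 0% in the 15 °C replicates. Each temperature had libraries with nearly all counts on either contig. This was not usual: of the 76 members with several contigs, 67 had the same leading contig in all 6 libraries. In 39 that contig held over 90% of the counts in every library. Some of these, such as TRINITY_DN130841_c1_g1, had counts on 1 contig alone, so their leading contig could not change.

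Other members shared a cluster with a more abundant group. TRINITY_DN134258_c1_g1, with 5 contigs of up to 1277 bases, had 2665, 413.5 and 853 TPM in the 20 °C replicates and 715, 1711 and 621 TPM in the 15 °C replicates. TRINITY_DN134258_c0_g1, at rank 9, had 21142, 5698 and 10897 TPM at 20 °C and 4959, 11189 and 4412 TPM at 15 °C. Both were highest in 20 °C replicate 1, with 15 °C replicate 2 next. TRINITY_DN137200_c1_g1, which made up little of its cluster, had 581, 709 and 960 TPM at 20 °C, and 597, 2136 and 1735 TPM at 15 °C. TRINITY_DN137200_c0_g1, at rank 2, had 45830, 24103 and 57884 TPM at 20 °C, and 46540, 22010 and 43275 TPM at 15 °C, so it was lowest in 15 °C replicate 2, where the member was highest. TRINITY_DN137200_c2_g1, at rank 6, had 6168, 12276 and 9551 TPM at 20 °C, and 5883, 14280 and 22959 TPM at 15 °C. Both members were picked with these values in view.

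No member passed the test for a difference between embryonic temperatures. The test (edgeR's quasi-likelihood test, all 31870 contig groups with enough counts, Benjamini-Hochberg adjustment over all of them, threshold 0.05) called 0 of 193 members and 0 of all groups (0% called), and the smallest adjusted p of a member was 1.00. All 193 members had enough counts to be tested. At an unadjusted p under 0.05 there were 3 members (1.55%), against 1.94% of all groups tested, 1 of them higher and 2 lower at 20 °C where the background was 0.96% and 0.979%. This count was 11 (5.70%) without 15 °C replicate 1, against 4.79% of all groups in that fit, and 5 (2.59%) without 20 °C replicate 2, against 2.65%, again with 0 members called. DESeq2 called 0 members by adjusted p, against 0.16% of all groups, and 4 (2.07%) had an unadjusted p under 0.05, against 2.75%. Without the filter on low counts edgeR called 1 member (0.518%), against 0.0652% of all groups. In that fit 13 (6.74%) had an unadjusted p under 0.05, against 3.17%. With limma on log2(TPM + 0.5), 0 members were called, against 0.00142% of all groups. There 10 (5.18%) had an unadjusted p under 0.05, against 4.13%. On log2(TPM + 0.05) 0 were called, against 0.00142%, and 9 (4.66%) had an unadjusted p under 0.05, against 3.07%.

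Fitted changes of members were small and centred near 0. The median log2 fold change was -0.02, beside 0.03 for all groups tested, with quartiles of -0.20 and 0.10, and 88 members (45.6%) were fitted higher and 105 (54.4%) lower at 20 °C, against 52.4% and 47.6% of all groups. The median was above 0 without 20 °C replicate 2 (0.05) and without 15 °C replicate 1 (0.09). Changes of 2-fold or more in either direction were fitted for 4 members (2.07%), against 14.2% of all groups. The largest were -1.64 for TRINITY_DN129078_c0_g2 (interval from -6.63 to 3.34) and 1.33 for TRINITY_DN20869_c0_g1 (from -2.49 to 5.14). Both members had high and low libraries at both temperatures. For 118 members (61.1%) the 95% confidence interval lay wholly within a 2-fold change in either direction, against 6.92% of all groups. Within a 4-fold change it lay for 171 members (88.6%), against 48.2% of all groups. The median interval reached 0.68 log2 units to either side for members and 1.55 for all groups, and edgeR's biological coefficient of variation had a median of 0.38 for members and 0.56 for all groups. edgeR estimates this coefficient and the error behind the intervals partly from other groups, so neither is a member's own spread alone. Members had higher counts than most groups, and the part of depth in these widths was not tested.

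**Figure D5:**
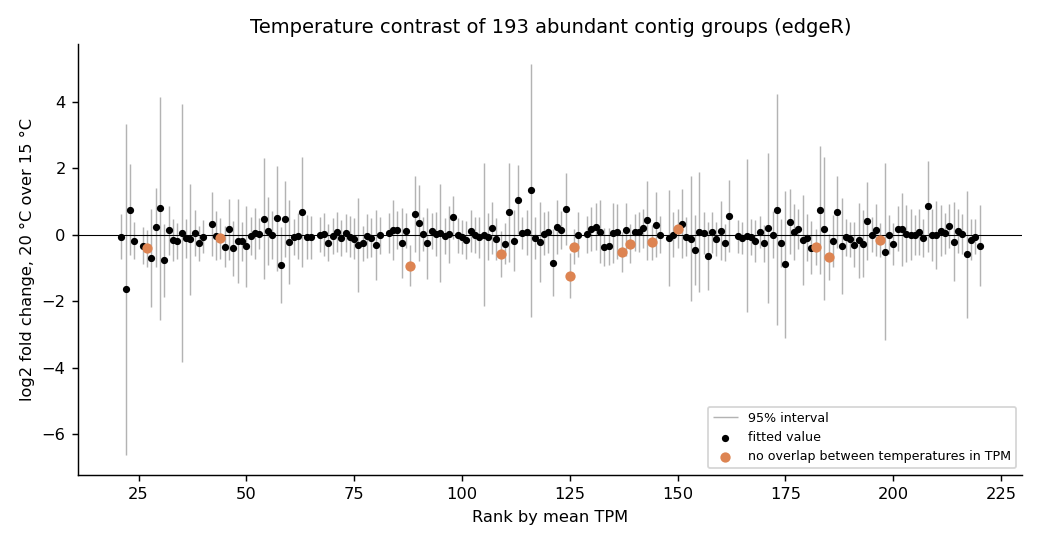
Fitted log2 fold change of 20 °C over 15 °C (y axis) against rank by mean TPM (x axis) for the 193 members; black points are fitted values, grey lines 95% confidence intervals, and orange points the 13 members whose temperatures did not overlap in TPM. Nearly all fitted values lie within 1 log2 unit of 0, and 4 members exceed it.

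The TPM ranges of the temperatures did not overlap in 13 members (6.74%), against 8.84% of all groups tested. Of these, 12 were lower and 1 was higher at 20 °C, where the background was 3.98% lower and 4.85% higher. Scaled by counts (TMM-scaled CPM) in place of TPM, 7 members did not overlap, against 9.17% of all groups. All 7 were lower and 0 higher at 20 °C, where the background was 4.17% and 5.0%, and all 7 were also among the 13. Of the 12, 4 were under 300 bases. A lower mean TPM at 20 °C was found for 12 of the 15 members under 300 bases and for 117 of all 193 members (60.6%). The share of all groups with a lower mean was not computed, so these counts have no background. The 44 member contigs under 300 bases were taken from members of any length. Their median effective length was 66.1%, 65.4% and 69.1% of the length in the 20 °C replicates. In the 15 °C replicates it was 68.2%, 65.7% and 62.4%. A smaller effective length raises TPM at a given count, and its part in the result was not tested. In CPM, which has no length term, 3 of the 7 were under 300 bases.

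The member with the smallest p was TRINITY_DN137869_c1_g1, a single contig of 227 bases. It had 404, 382 and 381 TPM in the 20 °C replicates and 622, 1199.7 and 1067 TPM in the 15 °C replicates. The 20 °C libraries were nearly equal and all below the lowest 15 °C library. The mean was 389 ± 12.9 TPM at 20 °C and 963 ± 303 TPM at 15 °C (SD, n = 3 each). The fitted log2 fold change of 20 °C over 15 °C was -1.24 (standard error 0.28), the unadjusted p in edgeR's test was 0.00367 and the adjusted p was 1.00. In DESeq2 the adjusted p of this group was 0.0627, the lowest among its 13 alternatives, whose highest was 1.00. Its only contig passed in DESeq2 when contigs were tested singly (adjusted p = 0.0329).

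TRINITY_DN127130_c8_g2, with 2 contigs of up to 2559 bases, had 604, 798 and 428 TPM in the 20 °C replicates and 1269, 963 and 1186 TPM in the 15 °C replicates. All 20 °C libraries lay below all 15 °C libraries, at 610.0 ± 185 TPM and 1139 ± 158 TPM (SD, n = 3 each). The fitted value was -0.93 on the log2 scale (standard error 0.25), and edgeR's unadjusted and adjusted p were 0.00885 and 1.00. TRINITY_DN169640_c0_g1, of 370.0 bases, was the 1 member without overlap that was higher at 20 °C. It had 676, 603 and 635 TPM at 20 °C and 593, 584 and 555 TPM at 15 °C, a fitted log2 fold change of 0.18 with an interval from -0.40 to 0.76 (unadjusted p = 0.480 in edgeR). The fitted change was thus smaller than its standard error of 0.24. That fit used counts, and in TMM-scaled CPM the temperatures of this member overlapped. edgeR's biological coefficient of variation for it was 0.35, where the CV of its TPM over the 6 libraries was 6.97%. The first value is estimated partly from other groups. For TRINITY_DN73501_c0_g1, with a CV of 3.52%, it was also 0.35.

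The other member at an unadjusted p under 0.05 was TRINITY_DN127308_c2_g1, of 1651 bases. It had 559.7, 968 and 1441 TPM in the 20 °C replicates and 582, 461 and 420.3 TPM in the 15 °C replicates. The 20 °C replicates 2 and 3 were above all 15 °C libraries, and 20 °C replicate 1 lay below 15 °C replicate 1. The fitted value was 1.05 on the log2 scale (standard error 0.43), and edgeR's unadjusted and adjusted p were 0.0464 and 1.00. Without 20 °C replicate 3 the fitted value was 0.53. This member was called by edgeR when no filter on low counts was applied (adjusted p = 0.0364), the lowest among its 13 alternatives, whose highest was 1.00, and it was picked with that result in view.

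Single contigs and the makeup of groups were compared as well. Of 296 tested contigs that belong to members, 0 passed in edgeR with adjustment over all 33317 contigs tested (0% called), and 6 (2.03%) had an unadjusted p under 0.05, against 1.61% of all contigs. DESeq2 called 1 member contig, that of TRINITY_DN137869_c1_g1, against 0.615% of all contigs. The shares of contigs within a group were tested by edgeR's diffSpliceDGE in 50 members with several tested contigs. By the Simes method 0 passed (0% of all 3182 groups called), and 1 (2.00%) had an unadjusted p under 0.05, against 2.64% of all groups.

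That member was TRINITY_DN140144_c2_g2, with a longest contig of 1851 bases (unadjusted p = 0.0228, adjusted p = 1.00 in edgeR). Its contig TRINITY_DN140144_c2_g2_i6 held 0.336%, 0.813% and 29.6% of the group's counts in the 20 °C replicates and 0.529%, 0.324% and 0.789% in the 15 °C replicates. For this contig 20 °C replicate 3 stood apart from the other 5 libraries. Another tested contig of the group, TRINITY_DN140144_c2_g2_i3, held 0.616%, 1.40% and 0.149% at 20 °C, and 0%, 0.199% and 0% at 15 °C, with its higher shares in 20 °C replicates 1 and 2. The next smallest p, 0.0835 unadjusted in edgeR, belonged to TRINITY_DN129396_c0_g1, where a minor contig held 0.394%, 0.440% and 1.69% of counts at 20 °C, and 0%, 0.0908% and 0% at 15 °C. The whole group was at 1637 ± 1066 TPM at 20 °C and 2713 ± 1680 TPM at 15 °C (SD, n = 3 each), with overlap.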

How the data were processed

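The submitters' processing notes list Trimmomatic and kallisto as the tools. No version or option is stated in the sources used, and the assembly was not analysed here. The authors deposited estimated counts and TPM for 347710 contigs per library, per the file headers. Libraries were made with a stranded mRNA kit, per the labels' protocols. Contig lengths and effective lengths in bases were also deposited.

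Values were summed per contig group. Estimated counts were rounded to whole numbers for testing in edgeR 4.0.16 (R 4.3.3) with filterByExpr (about 10 counts in at least 3 libraries, a total of 15), TMM factors and a robust quasi-likelihood fit with temperature as the sole term. The 31870 groups kept hold 93.5% to 95.2% of counts. Contig shares were tested with diffSpliceDGE. Standard errors and 95% confidence intervals were derived from each fitted change and the test's F value. As alternatives, DESeq2 1.42.0 was run on the counts, and limma 3.58.1 on the log2 of TPM after adding 0.5 or 0.05, where a fold change depends on the number added. Procedures were run on simulated counts with large planted changes, which does not show how small a change these data could reveal.

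Described members were the 5 with the highest mean, the 4 with the lowest and the 4 with the highest CV. Added were those with the smallest p among members without overlap (up to 2 per direction) and for contig makeup (2). The 3 clusters (by DN number) shared by several members with the highest level were also described. Members and lists were chosen with earlier results of these data known.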

Additional observations from a re-analysis of the deposited data

How the results depend on the processing

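The call of 0 members was also found with RLE factors, DESeq2, a mean count of at least 10 and limma on either TPM scale. It was also found with each library left out. The count was 1 (0.518%) without the filter on low counts, against 0.0652% of all groups. There were 3 other ways of choosing members: none dropped for length or contig number, ranking by median TPM and ranking by mean CPM. These were read from the main fit, which called 0 of all groups, so they could only give 0. The number at an unadjusted p under 0.05, 3 as reported, was 13 (6.74%) without the filter, against 3.17% of all groups. With limma it was 10 (5.18%, against 4.13%) after adding 0.5 to TPM and 9 (4.66%, against 3.07%) after adding 0.05. Leaving out libraries gave 2 to 11, highest without 15 °C replicate 1 (11, or 5.70%, against 4.79% of all groups) and lowest without 15 °C replicate 2 (2, or 1.04%, against 2.75%). Without 20 °C replicate 2 it was 5 (2.59% against 2.65%). Member contigs called moved to 1 with DESeq2 (0.338%, against 0.615% of all contigs) and stayed at 0 otherwise. Contig makeup was at 0 throughout, also with each library left out (from 0 to 0 in both). The smallest adjusted p for makeup was 0.0976, without 20 °C replicate 3.

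The members that did not overlap numbered 13 in TPM (6.74%, against 8.84% of all groups). In TMM-scaled CPM, a scale chosen after seeing the data, they numbered 7 (3.63%, against 9.17%). The median log2 fold change of -0.02 lay between -0.13 and 0.09 when libraries were left out, so its sign was not stable. The difference in TPM share of -0.961 lay between -1.46 and -0.398 over its 10 alternatives. The median CV of 19.8% was 21.1% in CPM and 21.5% with members ranked by mean CPM, and 19.3% to 20.7% when libraries were left out. For all of these changes the cause was not tested.

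A replicate block in the fit called 0 members, 0 member contigs and 0 makeups. The unadjusted p was under 0.05 for 4 members (2.07%, against 1.48% of all groups), 6 contigs (2.03%, against 0.996%) and 1 makeup (2.00%, against 1.60%). The labels tie the numbers to no animal or clutch, and deviations of same-numbered libraries correlated at 0.08, 0.18 and -0.02, so they were not treated as pairs. Number 2 alone was the best match in both directions. TRINITY_DN137869_c1_g1 had a log2 fold change from -1.41 to -1.06, TRINITY_DN127130_c8_g2 from -1.05 to -0.77 and TRINITY_DN169640_c0_g1 from 0.08 to 0.31 over 13 alternatives each. The choice of members without overlap favours a fixed direction. TRINITY_DN127308_c2_g1 lay between 0.53 and 1.33, lowest without 20 °C replicate 3.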
